A study of Mus musculus with 38 samples.

Results

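A set of 9 genes that the lung epithelium is known for was followed through mouse mammary tumor samples taken from the mammary gland and from the lung. They are Sftpc, Sftpa1, Sftpb and Sftpd, which encode surfactant proteins, Napsa, a protease that processes surfactant proproteins, Lamp3, a membrane protein of the lamellar bodies that store surfactant, Scgb1a1, the main secretory protein of airway club cells, Aqp5, a water channel of type I alveolar cells and of glands, and Nkx2-1, the transcription factor that drives the lung epithelial program. Probes were taken by gene name, older names included, so that the 9 members were read from 13 of 41174 probes and stand among 28786 gene names.

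Surfactant is made by type II alveolar cells, which keep the air spaces open and renew the type I cells that line them. Club cells secrete Scgb1a1 into the bronchioles. Surfactant protein D and Aqp5 are not limited to lung, because secretory epithelia of other organs, glands among them, make them too. Alveolar macrophages take up and clear surfactant.

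Donor mice carried both the polyoma middle T antigen under the mouse mammary tumor virus promoter (MMTV-PyMT) and GFP under the actin promoter. Their hyperplastic mammary tissue was transplanted into FVB/n hosts without these transgenes, and GFP-positive cells were sorted from every sample. The actin promoter marks every cell of the transplant, not the tumor epithelium alone. The progression experiment holds 5 adenoma arrays (outgrowths of 5 weeks), 6 carcinoma arrays (18 weeks), 6 arrays of disseminated tumor cells, sorted from pooled lungs of mice with 18-week outgrowths, and 5 arrays of lung metastases that grew after the primary tumor was removed. The chemotherapy experiment, all of it mammary tumor, holds 6 untreated tumors, 6 residual tumors (10 days after the first dose) and 4 relapsed tumors (10 days after the fourth dose). Treatment with docetaxel, doxorubicin and cyclophosphamide began 2 months after transplantation. RNA was amplified through 2 rounds in the progression experiment and through 1 round in the chemotherapy experiment, and the 2 were normalized apart, so that a level in one is set beside a level in the other only as a description. Neither the labels nor the methods say that each array is a separate animal, so the p-values measure the spread between arrays.

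Each value is the log2 ratio of the sample (Cy5) to a Universal mouse reference RNA (Cy3) at a gene's probe. A gene counted as called where limma, fitted over all genes, put its adjusted p under 0.05 and its log2 change was 1 or more in size. The share of spots well above background ran from 48.4% to 78.9% over the 22 progression arrays and from 50.5% to 64.3% over the 16 chemotherapy arrays. Adenomas and disseminated cells shared slides 4 to 6 and one scan day, and carcinomas and metastases shared slides 1 to 3 and another. The comparison of disseminated cells with adenomas and that of metastases with carcinomas thus stay within slides. The other pairs cross both slides and scan days, and there batch and group cannot be told apart. The within-slide comparisons also mix site with tumor age. Disseminated cells came from mice with 18-week outgrowths and were set against 5-week adenomas. Metastases grew on after tumors of 18 weeks were removed and were set against 18-week carcinomas. In both, site and tumor age cannot be told apart.

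Sftpc, Sftpa1 and Scgb1a1 were higher in both lung-derived groups, and Aqp5 was lower in both. Napsa and Sftpd were called higher in disseminated cells and not in metastases, where Napsa was called under 8 of 25 alternatives, and the difference between these effects was called for neither (adjusted p = 0.328 and 0.222). Sftpb, Lamp3 and Nkx2-1 were called in no comparison. In disseminated cells against adenomas 5 of the 9 members were called higher and 1 lower, where 4.65% of all 28786 genes were called higher and 5.82% lower, 10.5% in either direction. In metastases against carcinomas 3 were called higher and 1 lower, against 4.75% and 5.3% of all genes and 10.1% in all. With both lung-derived groups averaged against both primary groups, 5 were called higher and 1 lower, against 4.79% and 5.68%, again 10.5% in all. The median log2 change of the members was 2.34, 0.32 and 1.29 in these comparisons, and the median over all genes was -0.01, -0.05 and -0.02.

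**Figure D1:**
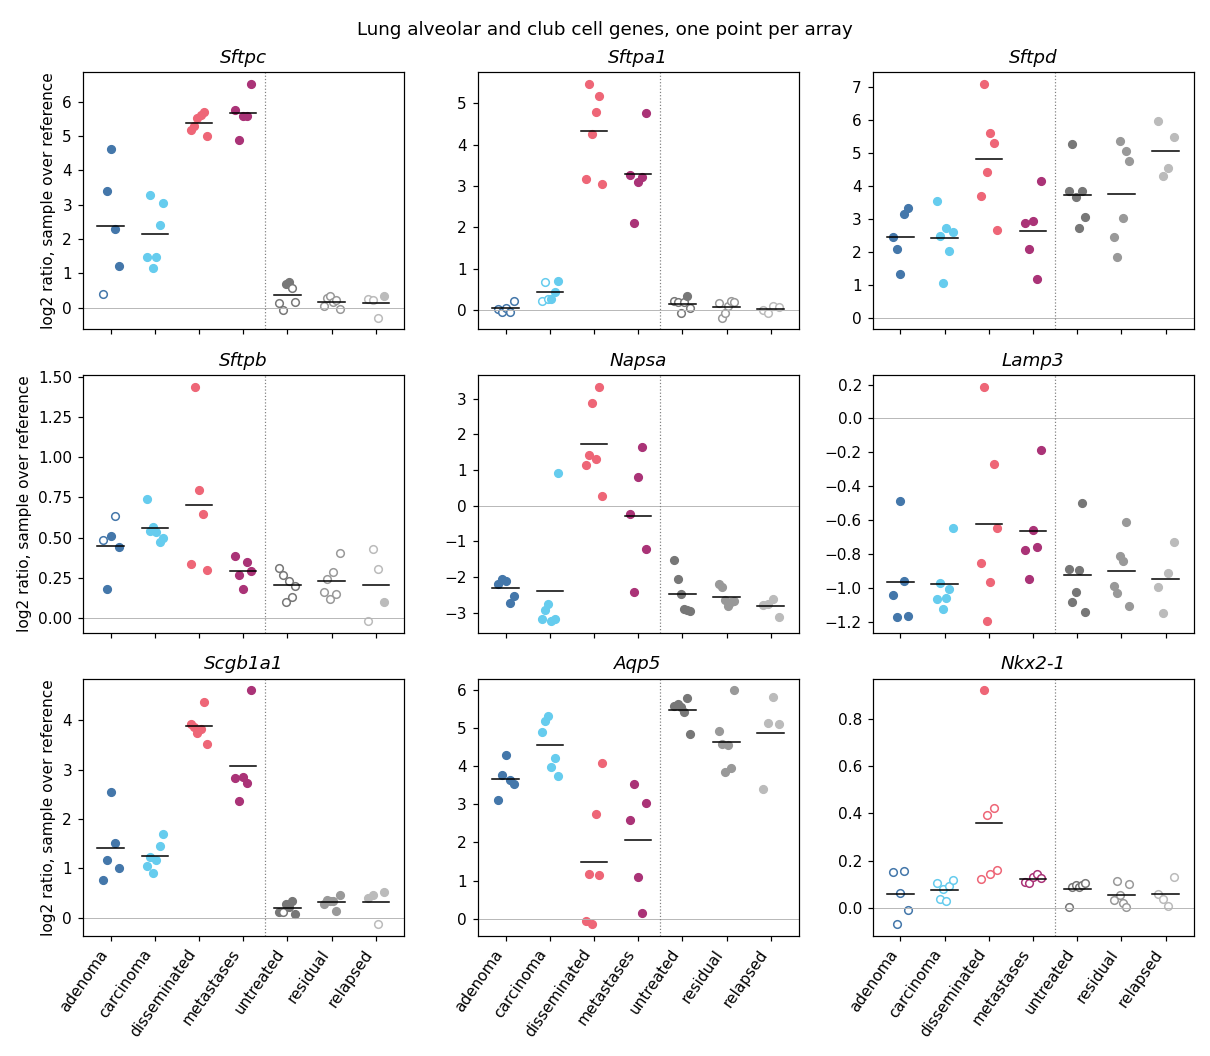
Log2 ratio of sample to reference (vertical axis, a scale of its own in each panel) for each member on every array, by group, with the mean as a bar. Filled points are spots whose sample channel is well above background and open points are not, and a dotted line separates the progression groups from the chemotherapy groups. Sftpc, Sftpa1 and Scgb1a1 are high in disseminated cells and metastases, Aqp5 is high in every mammary tumor group, and Nkx2-1 is open in all but 1 array.

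Sftpc, the surfactant protein specific to type II cells, had log2 ratios of 0.39, 3.39, 4.62, 2.29 and 1.20 in adenomas 1 to 5, and of 1.15 to 3.29 in the 6 carcinomas with a median of 1.95. The 6 arrays of disseminated cells lay between 4.99 and 5.69, with a median of 5.40, and the metastases read 5.76, 4.87, 5.58, 5.57 and 6.52. Every lung-derived array was thus above every primary tumor array, adenoma 3 being the nearest. The log2 change was 3.0 ± 0.57 (SE) in disseminated cells against adenomas (limma adjusted p = 0.00181) and 3.52 ± 0.57 in metastases against carcinomas (adjusted p = 0.000424). It kept its sign on each of the 3 slides in either comparison, from 0.83 to 3.74 and from 2.15 to 4.35. The call against adenomas was lost with the scanner's processed signals, at a change of 1.17 and an adjusted p of 0.27, and with a normexp offset of 0, at 1.83 and 0.0963. Among the chemotherapy arrays the log2 ratio stayed between -0.29 and 0.75, and the sample channel was well above background on 3 of the 16.

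The reference channel at the Sftpc spot was not level. Before background subtraction, the Cy5 signal was 136 to 2921 on the 11 primary tumor arrays and 22814 to 301529 on the 11 lung-derived arrays. The Cy3 signal of the reference RNA was 67.1 to 88.5 on the former and 131 to 2363 on the latter, and it was 47.4 to 54.9 on the chemotherapy arrays. Less local background, Cy3 came to 0.436% to 1.37% of Cy5 on the arrays of disseminated cells and to 0.237% to 0.376% on those of metastases. On the sample channel alone, an alternative chosen after these signals were seen, the log2 change of Sftpc was 6.95 in disseminated cells against adenomas and 5.0 in metastases against carcinomas. What raised the reference signal was not tested.

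Scgb1a1 was also higher in both lung-derived groups. On the ratio scale its mean was higher in disseminated cells than in metastases, and that of Sftpc was not. In the normalized sample channel, however, the median log2 signal of Sftpc was 15.92 in disseminated cells and 14.74 in metastases. The log2 ratios of Scgb1a1 were 0.77, 1.18, 2.56, 1.52 and 1.01 in the adenomas and 0.91 to 1.71 in the carcinomas, with a median of 1.20. They were 3.51 to 4.38 in the disseminated cells, with a median of 3.85, and 2.82, 2.37, 2.85, 2.74 and 4.61 in the metastases. Disseminated cells and metastases overlapped each other through metastasis 5, and metastasis 2 fell below adenoma 3. The log2 change was 2.47 ± 0.33 against adenomas for the disseminated cells (adjusted p = 0.000155) and 1.82 ± 0.33 against carcinomas for the metastases (adjusted p = 0.00105), with the same sign on all 3 slides in both. The reference channel moved here as well, from 174 to 263 on primary tumor arrays to 219 to 7469 on lung-derived arrays. On the sample channel alone the changes were 5.72 and 2.25, and metastases then differed from disseminated cells by -3.11 (adjusted p = 0.0044). On the ratio scale that difference was -0.80 and was not called (adjusted p = 0.122), but without metastasis 5 it was -1.18 and was called (adjusted p = 0.00706). In the chemotherapy groups Scgb1a1 read -0.13 to 0.53.

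Sftpa1 encodes a collagen-like surfactant lectin. Its probe with the stronger signal, at chr14:38560683-38560742 of build mm7, was not well above background on any adenoma array (log2 ratios of -0.04 to 0.23) and on 3 of the 6 carcinoma arrays (0.21 to 0.70). It was well above background on every lung-derived array. The disseminated cells read 3.05 to 5.48, with a median of 4.53, and the metastases read 3.27, 2.11, 3.09, 3.22 and 4.76, so that the lung-derived and primary arrays did not overlap. The change was 4.27 ± 0.41 against adenomas in disseminated cells (adjusted p = 5.55e-06), and 2.86 ± 0.41 against carcinomas in metastases (adjusted p = 0.000193). Since the adenomas give only a bound, the mean sample-channel signal was put at least 34.7-fold higher in disseminated cells and at least 14.6-fold higher in metastases than in adenomas. On the ratio scale the folds were smaller, at 19.4 and 9.49. Metastases and adenomas share no slide or scan day. The bound sets the mean of the bright group against the dimmest signal still well above background on each adenoma array, or the probe's own where that is higher. It carries no estimate of error. The second Sftpa1 probe, at chr14:38562129-38562188, rose less, by 1.33 over both lung-derived groups, and was called as well (adjusted p over all probes = 0.00171). Both probes lay between -0.34 and 0.35 in the chemotherapy groups.

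Promoter sequence of 5 members is held by the RefSeq table used (GRCm38.p6), and 3 windows, from 250 bases before to 50 after the start site, are shown because these genes went different ways: Sftpa1 rose, Sftpb was not called and Aqp5 fell. They read 5′ to 3′ on the gene's strand. Capitals mark CAAG on either strand (CAAG or CTTG), the core that Nkx2-1 binds.
Sftpa1, chr14:41131538-41131837, plus strand: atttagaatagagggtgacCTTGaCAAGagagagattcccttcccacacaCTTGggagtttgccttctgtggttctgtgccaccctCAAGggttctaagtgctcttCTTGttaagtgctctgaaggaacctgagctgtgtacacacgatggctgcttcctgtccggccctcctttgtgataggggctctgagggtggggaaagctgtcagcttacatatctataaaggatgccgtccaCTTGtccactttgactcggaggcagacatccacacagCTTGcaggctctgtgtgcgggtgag
Sftpb, chr6:72304360-72304659, plus strand: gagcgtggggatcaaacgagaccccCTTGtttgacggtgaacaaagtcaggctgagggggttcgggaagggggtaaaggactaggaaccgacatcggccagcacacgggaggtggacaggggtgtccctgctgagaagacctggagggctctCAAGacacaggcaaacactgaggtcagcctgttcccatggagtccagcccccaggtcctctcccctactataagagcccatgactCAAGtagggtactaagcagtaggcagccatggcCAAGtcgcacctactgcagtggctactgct
Aqp5, chr15:99590778-99591077, plus strand: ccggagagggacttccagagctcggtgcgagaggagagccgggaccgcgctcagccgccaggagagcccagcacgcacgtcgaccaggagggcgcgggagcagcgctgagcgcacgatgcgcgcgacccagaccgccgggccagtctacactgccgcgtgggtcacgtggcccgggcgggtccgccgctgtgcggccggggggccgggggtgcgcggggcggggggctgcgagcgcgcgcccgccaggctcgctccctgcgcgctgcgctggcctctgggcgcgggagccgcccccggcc
The Sftpa1 window holds 7 matches, a number reached by 2.3% of the 32851 windows of 300 bases in the table, and the Sftpb window holds 4, a number reached by 27.1%. The Aqp5 window holds none, although 90.6% of windows hold at least 1. The other windows, not printed, are those of Nkx2-1 and Lamp3, which were called in no comparison: they hold 6 and 3 matches, numbers reached by 5.9% and 47.6%. G and C make up 79.7% of the Aqp5 window, 58.3% of that of Sftpb and 52.0% of that of Sftpa1. TATAAA, searched on both strands and free of overlap with CAAG, starts at position -30 of Sftpa1 and is in 13.6% of all windows. These are matches of letters and not measured binding. No window was held for Sftpc, Sftpd, Napsa or Scgb1a1, so their promoters were not examined.

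Sftpd, a soluble lectin, lies beside Sftpa1 (probe at chr14:38598705-38598764 of mm7) but was present in every group. Adenomas 1 to 5 read 2.43, 2.08, 1.32, 3.15 and 3.31, the carcinomas 1.06 to 3.54 with a median of 2.54, the disseminated cells 2.67 to 7.09 with a median of 4.86, and the metastases 2.87, 2.08, 2.93, 1.16 and 4.15. Disseminated samples 2, 3, 4 and 5 exceeded every array of the other progression groups, and samples 1 and 6 fell within their range. The change was 2.34 ± 0.65 in disseminated cells against adenomas (adjusted p = 0.0165) but 0.24 ± 0.65 in metastases against carcinomas (adjusted p = 0.857), with a 95% interval of -1.13 to 1.60. The difference between these 2 effects, -2.10 ± 0.92, was itself not called (adjusted p = 0.222). By slide, disseminated cells exceeded adenomas by 0.39 on slide 4, 2.17 on slide 5 and 5.02 on slide 6, which held 1 adenoma. The arrays of disseminated cells on slide 4 were samples 1 and 6. Metastases less carcinomas ran from -0.28 to 0.93 over their slides. The change from disseminated cells to metastases was -2.16 ± 0.65 (adjusted p = 0.0341), the only one among the 9 members called between the 2 lung-derived groups, where 7.12% of all genes were called, 3.43% higher and 3.69% lower in metastases. That call was lost in the fit of those 2 groups alone (adjusted p = 0.133) and on the sample channel alone. It was also lost with Aquantile or no normalization between arrays, which give the same log2 ratios and so are the same fit. Leaving out any one of disseminated samples 2 to 5 or metastases 1 to 4 lost it as well, at changes of -2.23 to -1.70. Leaving out adenoma 3 brought the change against adenomas to 2.05 and its adjusted p to 0.0506. The average over both lung-derived groups, 1.29 ± 0.46 (adjusted p = 0.0374), was lost with slide as a fixed block, at 1.20 and 0.0525, and with the scanner's processed signals. It was also lost when any one of adenomas 1 to 3, carcinomas 2, 3 and 5, disseminated samples 2, 4 and 5 or metastases 1, 3 and 5 was left out, at 1.06 to 1.30. Airway secretory genes moved with Sftpd: the mean of 8 of them was highest in disseminated sample 2, at 3.98, and its Pearson correlation with Sftpd over the 22 arrays was 0.72, and 0.78 within groups. Other lists moved with Sftpd too. The values were 0.81 and 0.56 for blood cell genes, 0.74 and 0.46 for ciliated cell genes, and 0.68 and 0.49 for endothelial genes. They were 0.70 and 0.62 for the other type I genes and the same for the other type II genes. The part of any of these genes in the result was not tested.

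Sftpd was also measured in the mammary tumors of the chemotherapy experiment. Untreated tumors 1 to 6 ranged from 2.73 to 5.26 (median 3.74), residual tumors from 1.84 to 5.35 (median 3.88) and the relapsed tumors read 5.94, 4.29, 4.52 and 5.47. Relapsed tumors exceeded the untreated mean by 1.32 ± 0.66, which was not called (adjusted p = 0.683). The sample channel of Sftpd was well above background on all 16 arrays, and that of Sftpc on 3. The reference channel of Sftpd was well above background on 1 relapsed array and on no untreated or residual array, and in the progression groups on 2 of 5 adenoma, 5 of 6 carcinoma, 2 of 6 disseminated and 4 of 5 metastasis arrays, so that many of its ratios have a denominator at background.

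The Napsa ratios did not follow the groups exactly. Adenomas 1 to 5 read -2.19, -2.05, -2.11, -2.72 and -2.53. Of the 6 carcinomas 5 lay between -3.23 and -2.75, and carcinoma 6 read 0.93. The disseminated cells read 0.26 to 3.33 with a median of 1.37, and the metastases read -0.22, -2.42, 0.81, 1.63 and -1.21. The change was 4.04 ± 0.75 against adenomas in disseminated cells, with no overlap (adjusted p = 0.00176). In metastases against carcinomas it was 2.10 ± 0.75, just short of a call (adjusted p = 0.0513), and negative on the slide of carcinoma 6 (-1.30). Without carcinoma 6 it was 2.76 (adjusted p = 0.00262), without metastasis 2 it was 2.64 (0.0199) and without metastasis 5 it was 2.33 (0.0432), and each of these was called. It was also called with slide as a random block (2.11, adjusted p = 0.0459), with a normexp offset of 0, the scanner's processed signals or median centring, and with dim probes left out, in all under 8 of 25 alternatives. The chemotherapy arrays lay between -3.12 and -1.53. Unlike that of Sftpc, the reference signal of Napsa was level, at 1217 to 2206 over all arrays.

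Macrophage genes moved with Napsa. The mean log2 ratio of 8 macrophage genes (Adgre1, Csf1r, Cd68, Mrc1, Cd14, C1qa, C1qb and C1qc) was 0.42 to 1.19 in adenomas and 0.50 to 4.79 in carcinomas, where the median was 1.24 and the highest was carcinoma 6. It was 3.53 to 4.90 in disseminated cells and 1.40 to 5.24 in metastases, lowest in metastases 5 and 2. Over the 22 progression arrays its Pearson correlation with Napsa was 0.90, and 0.82 after each group's mean was taken off. For Sftpc these were 0.64 and 0.07, for Sftpa1 0.70 and -0.07, and for Scgb1a1 0.63 and -0.13. The contrast was not limited to macrophage genes. The mean of the mammary epithelial genes correlated with Napsa at -0.79, with Sftpc at -0.47, with Sftpa1 at -0.63 and with Scgb1a1 at -0.56. Within groups these values were -0.68, -0.08, -0.37 and -0.15. The mean of the alveolar macrophage genes correlated with Napsa at 0.86, with Sftpc at 0.78, with Sftpa1 at 0.91 and with Scgb1a1 at 0.86, and within groups at 0.61, 0.13, 0.22 and 0.23. For the blood cell genes the values within groups were 0.62, 0.46, 0.67 and 0.53. The arrays of a correlation share slides and reference RNA. The part of macrophage RNA in the Napsa result was not tested, and in bulk RNA fewer cells of a type and less RNA per cell cannot be told apart.

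Aqp5 ran the other way. Adenomas 1 to 5 read 3.13, 3.77, 4.29, 3.64 and 3.54, and the carcinomas 3.74 to 5.31 with a median of 4.56. The disseminated cells spread from -0.15 to 4.08 with a median of 1.15, and the metastases read 2.59, 3.53, 1.10, 0.14 and 3.02. All metastases lay below all carcinomas, and 5 of the 6 arrays of disseminated cells lay below all adenomas. The change was -2.19 ± 0.68 in disseminated cells against adenomas (adjusted p = 0.0269) and -2.49 ± 0.68 in metastases against carcinomas (adjusted p = 0.0127), negative on every slide in both. The first call was lost in the fit of those 2 groups alone and without adenoma 2 or 3 or disseminated sample 1, 3 or 5, at changes of -2.16, -2.03, -1.88, -1.86 and -2.12, while the average over both lung-derived groups, -2.34 ± 0.48 (adjusted p = 0.00103), was called under all 35 alternatives. The untreated, residual and relapsed tumors read 4.85 to 5.78, 3.84 to 6.0 and 3.40 to 5.82.

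The Aqp5 ratio moved with mammary epithelial genes and against macrophage genes. The mean log2 ratio of 12 such genes (among them Krt8, Krt18, Elf5 and Wap) was 2.26 to 4.12 over the primary tumors of the progression experiment. It was -0.13 to 3.68 in disseminated cells and -0.08 to 3.70 in metastases, near 0 in disseminated samples 3 and 5 and in metastasis 4. These arrays read -0.15, 1.14 and 0.14 for Aqp5, and disseminated sample 1, with a mammary mean of 2.43, read -0.07. The Pearson correlation of the mammary mean with Aqp5 over the 22 arrays was 0.77, and 0.72 within groups. For the macrophage mean it was -0.74 and -0.53, and for the alveolar macrophage mean -0.76 and -0.58. Of the 12 genes, 5 were called lower in the lung-derived groups (Krt18, Elf5, Csn3, Wap and Lalba, at -2.19 to -1.66) and none higher. The part of the mammary or the macrophage genes in the Aqp5 result was not tested.

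**Figure D2:**
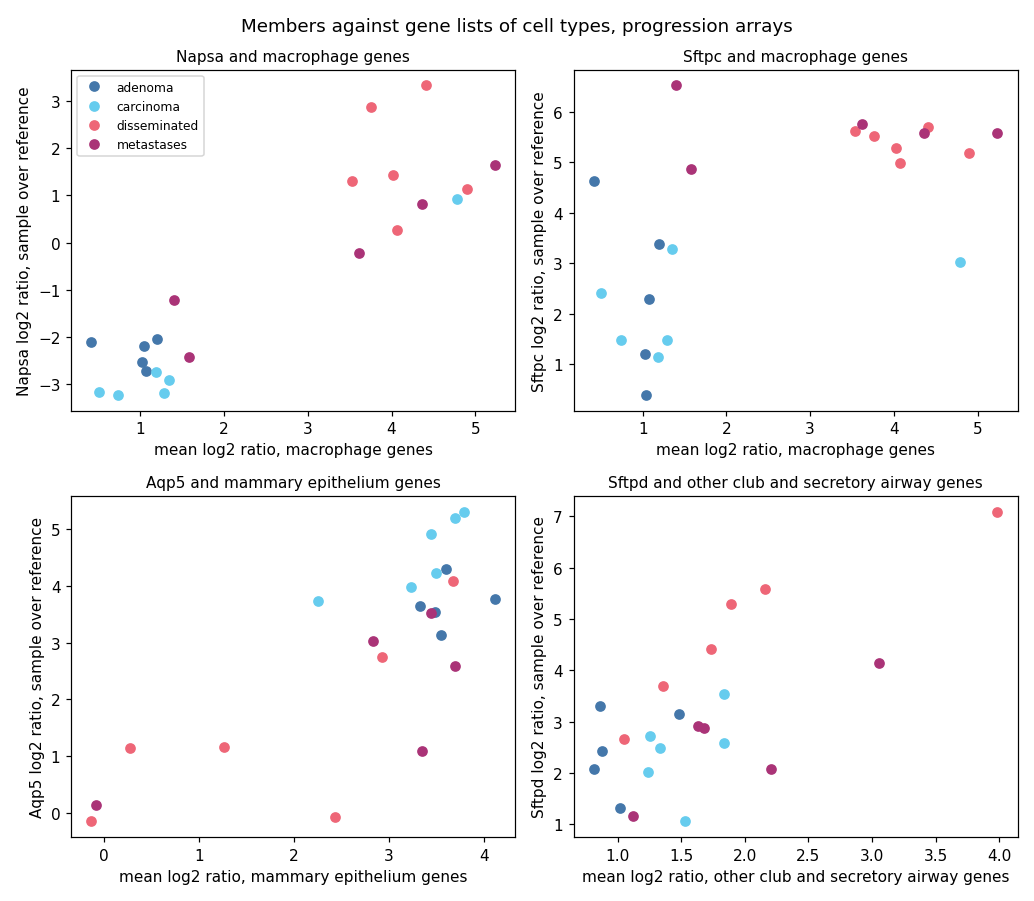
Log2 ratio of a member (vertical axis) against the mean log2 ratio of a list of cell type genes (horizontal axis) on the 22 progression arrays, 1 point per array, colored by group. Napsa is high where macrophage genes are high, carcinoma 6 included, Sftpc is high in metastases 2 and 5 where macrophage genes are low, Aqp5 is low in the 3 arrays with the lowest mammary mean and in disseminated sample 1, and Sftpd is highest in the disseminated sample with the most airway secretory signal.

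Sftpb, Lamp3 and Nkx2-1 had no call. Sftpb, a surfactant protein needed for lamellar bodies, read 0.18 to 0.63 in adenomas, 0.47 to 0.74 in carcinomas and 0.18 to 0.38 in metastases. Among disseminated cells it read 0.34, 1.44, 0.80, 0.65 and 0.30 in samples 1, 2, 3, 4 and 6. Sample 5 has no value because the scanner software marked its spot as an outlier, and the fit used the other arrays. Sample 2 stood apart, and the changes of 0.25 ± 0.15 in disseminated cells and -0.26 ± 0.15 in metastases were not called (adjusted p = 0.26 and 0.222), although all metastases lay below all carcinomas. The reference and sample signals were both faint, at 66.4 to 107.2 in Cy3 over the progression arrays other than disseminated sample 5. Cy5 was 132.5 to 281.9 on primary tumor arrays and 111.1 to 344.4 on lung-derived arrays, again without that sample. The spot left out, that of disseminated sample 5, read 780.5 in Cy5 and 230 in Cy3. The sample channel was well above background on 3 of 5 adenoma arrays and on every other progression array.

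Lamp3 has 4 probes, and the one with the strongest signal read -1.17 to -0.49 in adenomas, -1.12 to -0.65 in carcinomas, -1.20 to 0.19 in disseminated cells and -0.95 to -0.19 in metastases. All groups overlapped. The highest values were those of disseminated sample 2 and metastasis 5. Its changes of 0.34 ± 0.20 and 0.32 ± 0.20 were not called (adjusted p = 0.24 and 0.29), nor was any of the other 3 probes.

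Nkx2-1, read from 10 spots of 1 probe, was well above background on 1 of the 38 arrays, disseminated sample 2, at a log2 ratio of 0.92. The other arrays of disseminated cells read 0.12 to 0.42. Adenomas read -0.07 to 0.16, carcinomas 0.03 to 0.12 and metastases 0.11 to 0.14, and the 3 chemotherapy groups 0.00 to 0.13. Its change of 0.30 ± 0.11 in disseminated cells against adenomas had an adjusted p of 0.0474 and that of 0.28 ± 0.10 against carcinomas, with every disseminated array above every carcinoma, one of 0.0421. Both were short of the log2 change of 1 needed for a call, although with the scanner's processed signals they were called at 1.26 (adjusted p = 0.0497) and 1.24 (adjusted p = 0.0367). The change in metastases against carcinomas was 0.05 ± 0.11 (adjusted p = 0.821). At that signal a difference in Nkx2-1 was not measurable in most arrays.

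**Figure D3:**
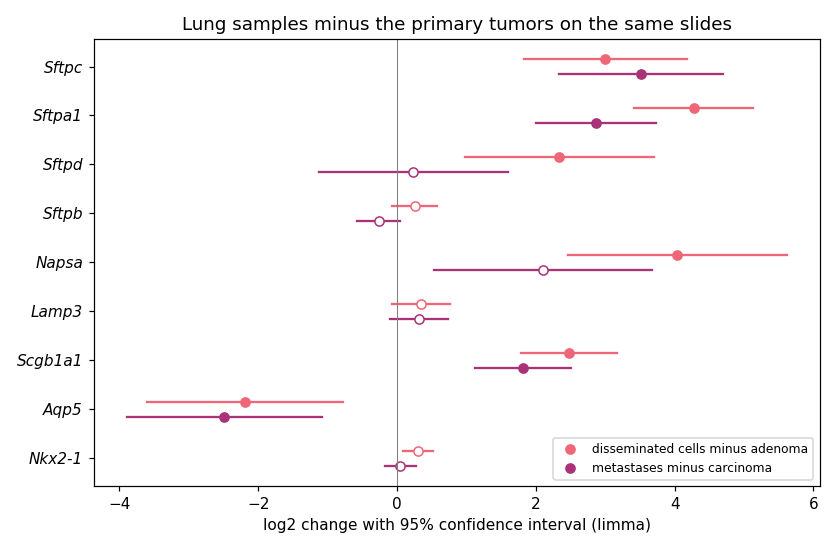
Log2 change (horizontal axis) of each member in disseminated cells minus adenomas and in metastases minus carcinomas, with the 95% confidence interval of the limma fit. Filled points were called. Sftpc, Sftpa1 and Scgb1a1 lie to the right of 0 and Aqp5 to the left in both comparisons, and Sftpd and Napsa have filled points for disseminated cells and open ones for metastases.

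The remaining comparisons add few calls. Against carcinomas, the tumors of the same outgrowth age, disseminated cells had the same 5 members higher and Aqp5 lower, at 3.24 for Sftpc, 3.89 for Sftpa1, 2.62 for Scgb1a1, 2.39 for Sftpd, 4.11 for Napsa and -3.08 for Aqp5 (6 of 9, where 5.5% of all genes were called higher and 6.07% lower, 11.6% in all). Metastases against adenomas gave 3 calls, all higher (Sftpc 3.28, Sftpa1 3.25 and Scgb1a1 1.67), against a background of 14.6% (6.09% higher and 8.47% lower). These contrasts share their groups with the ones above and cross slides. Carcinomas against adenomas gave no member called, with none at an unadjusted p below 0.05, where 3.3% of genes were called. The difference between the within-slide changes of metastases and of disseminated cells gave none either, against 1.53%. In it, Sftpa1 (-1.41), Sftpb (-0.52) and Sftpd (-2.10) had an unadjusted p below 0.05. The equal-variance test without moderation also gave 0 in both.

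In the chemotherapy experiment no member was called by limma in residual against untreated tumors (0.0938% of genes called), in relapsed against untreated tumors (0.0104%) or in relapsed against residual tumors (0.212%), and none by the equal-variance test. Aqp5 alone had an unadjusted p below 0.05, in residual against untreated tumors, at -0.83 ± 0.38 (limma adjusted p = 0.53). Sftpa1, Sftpb, Sftpc and Nkx2-1 were not well above background on at least 13 of the 16 arrays, each, so that a fall or a small change in them could not be seen.

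Among the other genes of the lung epithelium, a minority moved as Sftpc did. Of 8 further type II genes measured, 3 were called higher over both lung-derived groups and none lower, where 4.79% and 5.68% of all genes were. They were Chia1, a chitinase (1.26 ± 0.37), Hc, complement component C5 (1.19 ± 0.32), and Cxcl15, a chemokine of lung epithelium (1.07 ± 0.31). Lpcat1, which makes surfactant lipid, changed by 0.98 and was not called. Their median change was 0.60. Abca3, the lipid transporter of lamellar bodies, and Slc34a2, a phosphate transporter of type II cells, changed by 0.08 and -0.19.

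Of 6 type I genes, Clic5 (1.62 ± 0.31) and Hopx (1.51 ± 0.34) were called higher and Emp2 (-1.12 ± 0.38) lower. Ager, a receptor held as a defining type I marker, changed by 0.17. Of 8 airway secretory genes, 3 were called higher and none lower. They were Scgb3a1 (2.79 ± 0.52) and Scgb3a2 (1.56 ± 0.44), secretoglobins like Scgb1a1, and Bpifa1 (1.70 ± 0.56), a secreted protein of the upper airways. Cyp2f2, a defining cytochrome of club cells, changed by -0.64. Of 4 ciliated cell genes only Tppp3 was called, at 1.94 ± 0.41, and Foxj1, the ciliated cell factor, changed by -0.06. None of 5 transcription factors that act with Nkx2-1 was called higher, and Klf5 was called lower, at -1.54 ± 0.38.

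**Figure D4:**
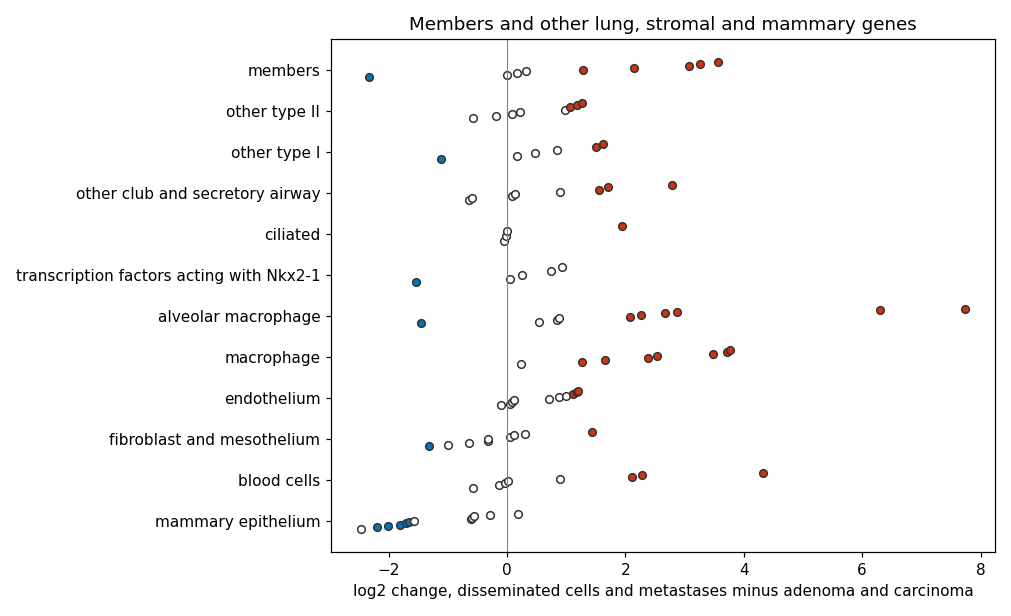
Log2 change of single genes (horizontal axis) in both lung-derived groups averaged minus both primary groups averaged, by list (rows). Red points were called higher, blue lower and white were not called. The widest rises are those of Chil3 and Ear1 among alveolar macrophage genes, the members reach 3.57, and the mammary genes lie mostly below 0.

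The genes whose pattern was most like those of Sftpc and Scgb1a1 included other members. The 20597 genes compared were those well above background on all arrays of at least 1 progression group. Sftpa1 passed this filter only through the lung-derived groups, where it is high, so its rank is no support for likeness. Over the 22 progression arrays, the highest Pearson correlations with Sftpc were those of Scgb1a1 (0.90), Sftpa1 (0.85), Ear1 (0.83), Rnase2a (0.82) and Chil4 (0.81). With Scgb1a1 they were Sftpa1 (0.93), Marco (0.91), Sftpc (0.90), Ear6 (0.89) and Ear10 (0.87). The points share reference RNA and slides and follow the 4 groups. Within groups, Sftpc and Scgb1a1 correlated at 0.71, Sftpc and Sftpa1 at 0.31, Sftpa1 and Sftpd at 0.72, and Sftpb and Nkx2-1, over 21 arrays, at 0.91, where disseminated sample 2 was the highest in both. Nkx2-1 was well above background on that array alone, and Sftpb was faint in both channels.

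Genes of cell types other than epithelium also differed between the groups. Of 10 alveolar macrophage genes, 6 were called higher over both lung-derived groups and 1 lower, with Chil3 at 7.74 ± 0.72 and Ear1 at 6.31 ± 0.45. The mean of that list was 1.24 to 1.68 in adenomas, 1.75 to 2.93 in carcinomas, 4.11 to 5.44 in disseminated cells and 2.81 to 4.42 in metastases, and 1.48 to 1.93 over the chemotherapy arrays. Of 8 macrophage genes 7 were called higher, of 10 endothelial genes 3, and of 8 blood cell genes 3, none lower. Of 9 fibroblast and mesothelial genes 1 was called in each direction. All samples were sorted for GFP, and the part of these cells in the results for the members was not tested.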

How the data were processed

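Samples were 38 Agilent 2-color mouse arrays with the sample in Cy5 and the reference in Cy3 on each, without dye swap. The authors deposited the intensity of every spot as scanned with Feature Extraction 10.7, and a matrix of log2 ratios that, per the methods, they had corrected with normexp and normalized with loess in limma. The intensities were used here and the deposited log2 ratios served as an alternative. The software was R 4.3.3 and the packages limma (3.58.1) and statmod (1.5.0). Local background was treated with normexp (offset 50), ratios were normalized by loess within arrays and by quantiles between the arrays of an experiment, flagged spots (0.435% of those that are not controls) and controls were left out, spots of a probe were averaged, and a gene's value is that of its brightest probe on average in the experiment. Probes were named through RefSeq accessions (22951) or by the array file (18223), and probe positions are those of build mm7 in the files. The exon that a probe lies in is not given in the sources used here.

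Each experiment had 1 limma model that held all of its groups and no covariate, and p-values were adjusted by Benjamini-Hochberg over 28786 genes. Groups come from the sample labels. The fit was tested on simulated data. The members, the gene lists and the alternatives were chosen with earlier results of these data known. The text names every member, and of each lung list up to 4 examples with the largest change in the lung-derived groups together with defining genes, which were added after their values were seen. Alternatives were a normexp offset of 0, the scanner's processed signals, median centring, Aquantile or nothing in place of quantiles, the deposited ratios, dim probes left out, all probes of a gene averaged, a fixed or random slide block, the replicate block, only the groups compared, an equal-variance test, each array left out and, added later, the sample channel alone. Aquantile and no normalization between arrays give the same log2 ratios, so they are the same fit, although they are counted as separate alternatives. The number of arrays limits the precision. Promoter windows were taken from a RefSeq table of build GRCm38.p6 by gene symbol.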

Additional observations from a re-analysis of the deposited data

Results flagged for a closer look

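Of 63 sets of values (9 members in 7 groups), 5 held an array whose gap to its neighbor was above the 95% critical value of Dixon's test, and chance alone marks about 1 in 20 sets. Carcinoma 6 stood above the other carcinomas in Napsa, at 0.93 against -3.23 to -2.75, and in Lamp3, at -0.65 against -1.12 to -0.97. Metastasis 5 stood above the other metastases in Scgb1a1, at 4.61 against 2.37 to 2.85. Carcinoma 1 was highest in Sftpb, at 0.74 against 0.47 to 0.56. Untreated tumor 1 was lowest in Nkx2-1, at 0.0037 against 0.09 to 0.10, where no array of the group was well above background.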

How the results depend on the processing

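Over all members, comparisons and alternatives, 2524 of 2588 values kept the side of the threshold, 37 lost a call, 27 gained one and none reversed. Another 161 changed sign without being called in either fit. These totals count the same fit under both Aquantile and no normalization between arrays. The number of members called in carcinomas against adenomas rose from 0 to 1 (Sftpa1) with the scanner's processed signals, and in metastases against disseminated cells it fell from 1 to 0 with only those groups compared. With each array left out in turn, the members called were 4 to 6 in disseminated cells against adenomas, 4 to 5 in metastases against carcinomas, 5 to 6 in both lung-derived groups against both primary groups, 3 to 4 in metastases against adenomas, 6 in disseminated cells against carcinomas, 0 to 3 in metastases against disseminated cells and 0 in the other 5 comparisons. In metastases against disseminated cells, 3 members were called without disseminated sample 6 or metastasis 5, 2 without disseminated sample 1, 1 without metastasis 4 and 0 without any other. Of all 28786 genes, 3177, 1880, 2183 and 2526 were called in these fits in that order, and 1361 to 1945 in the rest. The main fit called 2049. With the replicate block no count of members called changed, being 6 for both lung-derived groups. The genes called in the difference between the within-slide changes rose from 439 to 1125, and those in residual against untreated tumors fell from 27 to 11. Over all genes, calls in both lung-derived groups were 4593 with the processed signals against 3015. Calls in metastases against disseminated cells were 710 with only those groups compared against 2049. Calls in the difference between the within-slide changes were 261 by the equal-variance test, 216 without metastasis 3 and 1788 without disseminated sample 6. Those in the chemotherapy comparisons, 61 or fewer, fell to as few as 0 or 1 in several fits. The deviations of samples of one number correlated at -0.41 to 0.42 over the comparisons. These were not set against pairs of unlike numbers, so whether the numbers pair samples was not settled. The main fits used no pairing. A slide block could not be fitted where groups share no slide. Faint signal limits Nkx2-1 in all groups, and Sftpb, Sftpc and Sftpa1 in the chemotherapy groups. In the progression groups Sftpb was faint in both channels, although its sample channel was well above background on most arrays.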

Other observations

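The reference channel at single spots is a value that belongs to no comparison between groups, since the same RNA was hybridized throughout. At the Sftpa1 spot its Cy3 signal was 52.3 to 66.7 on primary tumor arrays and 57.8 to 245 on lung-derived arrays, beside Cy5 signals of 61.1 to 212 and 1482 to 18663. At the Aqp5 spot it was 778 to 1529 on primary tumor arrays and 939 to 1455 on lung-derived arrays. In the metastases, the Cy3 signal of Sftpc above local background was 0.237% to 0.376% of Cy5, on 3 slides. The highest Cy5 signals of Sftpc and Scgb1a1, 301529 and 368812, were both on the array of disseminated sample 2, which also held the highest Sftpa1, Sftpb, Sftpd, Lamp3 and Nkx2-1 ratios of the progression experiment.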
